A study of Homo sapiens with 12 samples.

Results

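The mRNAs of 10 transcription factors that govern epithelial identity were followed in irradiated MCF10A cells, an immortalized mammary epithelial line of human origin that does not form tumours. The 10 were TP63, ELF3, ELF5, EHF, GRHL1, GRHL2, GRHL3, KLF4, KLF5 and SOX9, chosen by name and found by their symbols among the 60675 genes of the expression table. They comprised 3 ETS-domain factors, 3 grainyhead-like factors, 2 Krüppel-like factors, 1 p53 family member and 1 SOX factor. A TPM (reads per gene length, set to the same total in each library) of at least 1 in at least 2 libraries was reached by 8 of the 10, which were tested among the 15303 genes that passed this filter. ELF5 and GRHL2 did not pass.

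ELF3, EHF and ELF5 belong to the epithelium-restricted branch of the ETS family. ELF3 is known as an epithelial factor that inflammatory cytokines induce, EHF is expressed in stratified and glandular epithelia, and ELF5 directs the alveolar luminal lineage of the mammary gland. KLF4 restrains the cell cycle and promotes epithelial differentiation, whereas KLF5 is linked to the proliferating basal compartment. p63, the product of TP63, maintains basal and stratified epithelia, the GRHL factors activate genes of cell junctions and barriers, and SOX9 marks progenitor cells of several epithelia.

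The study asked how the interleukin-1 (IL-1) receptor shapes the response of these cells to radiotherapy (RT). IL-1 binds to IL1R1, and signalling to NF-κB also needs the partner chain IL1RAP. RNA was sequenced from cells of the genotypes IL1R1-KO, IL1RAP-KO and wild-type (WT), each without RT and with RT (1 dose of 20 Gy), in 2 libraries for each of the 6 groups (12 in all), which the study describes as biological replicates. How they were cultured apart was not stated, so the p-values measure the spread between these libraries. All groups were MCF10A cells grown with EGF, cholera toxin, insulin, hydrocortisone and horse serum. The KO cells were made with lentiviral CRISPR vectors and selected with puromycin as pools, not as single clones. Which guide RNA was used for the sequenced cells, whether the WT cells carried a vector, and how long after RT the RNA was taken were not stated.

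Some features of the whole series bear on the values below. Mitochondrial transcripts took 18.3 to 21.1% of TPM in the untreated libraries and 36.9 to 57.0% after RT, with the highest share in IL1RAP-KO RT replicate 2. TPM were therefore rescaled with trimmed-mean factors (0.744 to 1.10), and levels are given below as scaled TPM. The scaling bears on directions: in WT cells 1079 genes were called higher and 942 lower after RT, against 718 and 1652 with TPM as deposited and 1220 and 722 when the factors came from nuclear protein-coding genes alone (nuclear scaling below). Untreated IL1RAP-KO cells held less IL1RAP mRNA than WT (log2 fold change -1.84, adjusted p = 0.013 from limma). In WT cells IL1RAP fell after RT (-1.09, adjusted p = 0.0026). The difference after RT was therefore smaller and under 2-fold (-0.87, adjusted p = 0.028 from limma). IL1R1 mRNA was called higher in IL1RAP-KO RT than in WT RT (1.025, adjusted p = 0.0046). Libraries labelled IL1R1-KO showed no loss of IL1R1 mRNA (log2 fold change -0.10 untreated, adjusted p = 1 from limma), although a frameshift need not lower the mRNA, so the label of these cells could not be checked this way. The study itself reported that IL-1 no longer led to breakdown of the NF-κB inhibitor IκBα in its IL1R1 and IL1RAP KO cells. It also reported depletion of IL1RAP protein by Western blot, and lacked a suitable IL1R1 antibody. Of the markers of other cell types, 3 of 9 fibroblast, 3 of 10 leukocyte and 3 of 8 endothelial genes passed the filter. COL1A2 and NKG7 were listed at 0 in every library, and PTPRC did not exceed 0.348 scaled TPM. The summed markers of these types were nevertheless higher after RT: the fibroblast sum was 24.3 to 32.8 untreated and 46.1 to 93.7 after RT, most of it DCN, the leukocyte sum was 11.6 to 25.1 and 35.1 to 82.6, much of it CD14, and the endothelial sum was 3.33 to 5.04 and 7.55 to 11.0. Their part in the results was not tested.

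The basal markers of mammary epithelium, 10 of 11 of which passed, summed to 4306 to 5263 scaled TPM in untreated libraries, to 2544 to 2756 in WT RT and to 3412 to 4164 in the KO cells after RT. A sum follows its most abundant genes, and in the KO lines the basal markers did not fall as a class. Their median log2 fold change after RT was -0.31 in WT, but 0.36 in IL1R1-KO and 0.26 in IL1RAP-KO. The luminal markers, 6 of 11 of which passed, summed to 648 to 676 untreated and 443 to 473 after RT. The median log2 fold change of these genes was -0.77 in WT, -0.31 in IL1R1-KO and -0.24 in IL1RAP-KO. Single luminal genes differed in direction: in these genotypes in turn, MUC1 changed by 1.01, 1.27 and 1.09 and EPCAM by -2.04, -1.70 and -1.70. Among the luminal genes KRT8, KRT18, EPCAM and MUC1 were measured, whereas ESR1, PGR, KIT and KRT19 stayed under 1 scaled TPM. The libraries of this epithelial line thus held both keratin classes, with the basal sum several times the luminal one.

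The sequences just upstream of the start sites are shown for the 3 factors whose mRNA rose in WT cells after RT. They were read from the RefSeq promoter table (GRCh38.p14), which held 11 start sites for 8 of the 10 genes and none for GRHL2 and SOX9. Each run is the 250 bases before the start site, read on the strand of the gene. Capitals mark any match to the motifs searched. ELF3 lies on the plus strand of chromosome 1, and its run covers chr1:202010337-202010586. EHF lies on the plus strand of chromosome 11, and its runs cover chr11:34624007-34624256 (start site 1) and chr11:34632316-34632565 (start site 2). KLF4 lies on the minus strand of chromosome 9, and its run covers chr9:107489770-107490019.
ELF3: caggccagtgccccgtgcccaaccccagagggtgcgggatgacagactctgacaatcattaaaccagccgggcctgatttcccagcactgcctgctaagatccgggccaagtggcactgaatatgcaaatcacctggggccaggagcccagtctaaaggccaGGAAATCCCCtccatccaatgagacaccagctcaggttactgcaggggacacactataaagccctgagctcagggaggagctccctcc
EHF start site 1: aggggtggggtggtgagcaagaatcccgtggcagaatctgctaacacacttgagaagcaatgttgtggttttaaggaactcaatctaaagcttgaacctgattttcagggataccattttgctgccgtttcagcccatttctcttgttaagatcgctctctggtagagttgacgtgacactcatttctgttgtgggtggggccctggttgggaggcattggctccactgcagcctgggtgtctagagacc
EHF start site 2: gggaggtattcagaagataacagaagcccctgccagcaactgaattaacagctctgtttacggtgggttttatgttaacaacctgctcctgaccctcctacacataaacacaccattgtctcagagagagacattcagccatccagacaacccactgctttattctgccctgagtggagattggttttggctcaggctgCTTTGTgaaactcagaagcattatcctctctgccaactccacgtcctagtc
KLF4: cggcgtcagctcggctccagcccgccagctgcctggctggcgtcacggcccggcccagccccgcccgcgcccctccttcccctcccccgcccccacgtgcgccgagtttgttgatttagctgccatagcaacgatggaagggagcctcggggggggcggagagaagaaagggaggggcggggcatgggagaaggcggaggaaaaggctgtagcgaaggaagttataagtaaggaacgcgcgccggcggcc

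On both strands, 7 motifs were searched in these 250 bases for all 35116 promoters of the table. They were the NF-κB consensus, the p53 family half-site, AACCGGTT (grainyhead), CCGGAAGT (ETS), TGANTCA (AP-1), GGGNGTGG (Krüppel-like) and ACAAAG (SOX). The ELF3 run held 1 NF-κB match, 79 to 88 bases upstream, and such a match was present in 5.21% of all promoters. The second EHF run held 1 SOX match, 46 to 51 bases upstream (13.7% of all promoters), and the first held none of the 7 motifs. The KLF4 run also held none of the 7. Among the other members, GRHL3 had 2 overlapping Krüppel-like matches at its start site 1 (15.7% of all promoters) and 1 p53 family half-site at start site 2 (5.57%). The grainyhead, ETS and AP-1 motifs, present in 0.117, 3.42 and 6.57% of all promoters, were found at no member. A match describes letters in the reference sequence, and neither binding nor which start site was in use was measured.

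In untreated WT cells, KLF5 had the highest level of the 10 factors, at 97.0 ± 7.7 scaled TPM (SD, n = 2). It was followed by EHF (46.4 ± 0.55), TP63 (32.0 ± 0.98), GRHL3 (13.99 ± 0.18), ELF3 (10.9 ± 1.9), KLF4 (3.11 ± 0.48), SOX9 (2.30 ± 0.055) and GRHL1 (1.00 ± 0.31), and the libraries of neighbours in this order did not overlap. TPM are divided by gene length, so these levels can be set beside each other. After RT of WT cells the order changed. EHF (108 ± 12) and KLF5 (98.0 ± 5.6) were highest with overlapping libraries, ELF3 (35.4 ± 2.2) came next and stood above TP63 (28.2 ± 3.4), and KLF4 (15.97 ± 1.2) overlapped with GRHL3 (15.5 ± 6.0). In both KO lines after RT, KLF5 was again the highest and ELF3 stood below TP63, KLF4 and GRHL3.

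**Figure D1:**
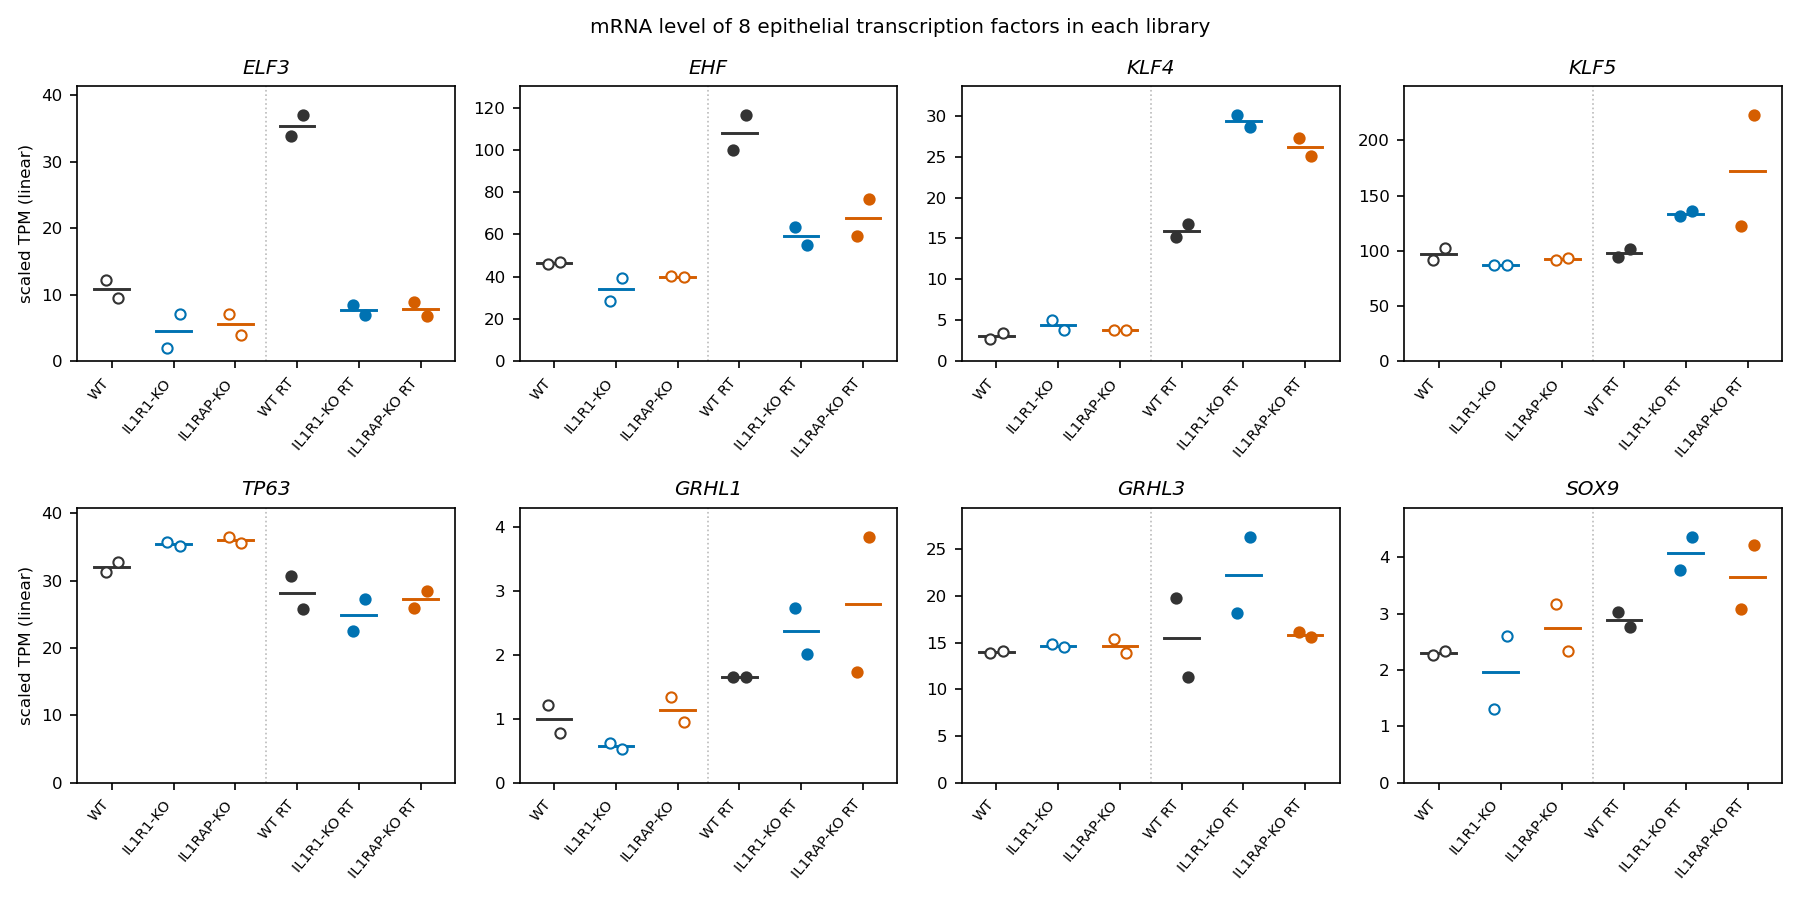
Scaled TPM of the 8 tested factors on linear axes that start at 0, with 1 point per library (open, untreated; filled, 20 Gy) and a horizontal line at the mean of the 2 libraries. ELF3 and EHF are highest in the WT RT libraries (33.9 and 37.0 for ELF3, 99.8 and 116 for EHF), whereas KLF4 is highest in the KO cells after RT (25.1 to 30.0).

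RT moved 3 of the 8 tested factors in WT cells, all upward: KLF4, ELF3 and EHF. A call required a more than 2-fold change with an adjusted p below 0.05 from limma. Of all tested genes 13.2% were called in this comparison, 7.05% higher and 6.16% lower. In the cells labelled IL1R1-KO, 2 of the 8 were called higher, KLF4 and GRHL1, beside 16.3% of all genes called (8.16% higher). In IL1RAP-KO cells 1 of the 8 was called higher, KLF4, beside 17.4% of all genes (8.21% higher and 9.18% lower). Without the fold threshold, the adjusted p was passed by 3 of the 8 in WT, 6 in IL1R1-KO and 5 in IL1RAP-KO. Of all genes 43.4, 48.2 and 50.1% passed it in turn. TP63, among these factors in both KO lines, was lower. No factor was called lower in any genotype. In these bulk libraries, a change of the RNA per cell and a change in the share of cells that hold it cannot be told apart. Averaged over the 3 genotypes, KLF4 alone was called (13.7% of all genes, 6.67% higher and 7.01% lower), although 7 of the 8 passed the adjusted p, beside 67.2% of all genes. ELF3 joined it (2 of 8) without WT replicate 1, IL1R1-KO replicate 2, IL1RAP-KO replicate 1, IL1R1-KO RT replicate 2 or IL1RAP-KO RT replicate 2. The libraries before and after RT did not overlap for 6 of the 8 factors in WT, 7 in IL1R1-KO and 6 in IL1RAP-KO cells, beside 74.2, 75.8 and 72.6% of all genes, and over the 3 genotypes together for 4 of the 8, beside 41% of all genes. Thus separation of the libraries did not set the factors apart.

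The median log2 fold change of the 8 factors after RT was 0.33 in WT, 0.79 in IL1R1-KO and 0.60 in IL1RAP-KO cells, beside medians of 0.00, 0.01 and 0.00 over all tested genes. The count in WT cells was 3 under all alternatives except with TPM as deposited, where EHF fell short of the fold threshold, and without WT replicate 2, where ELF3 missed the adjusted p. In IL1R1-KO cells the count became 5 without IL1R1-KO replicate 2, and 1 if IL1R1-KO RT replicate 1 was left out. It became 3 in IL1RAP-KO cells without IL1RAP-KO RT replicate 1. With nuclear scaling 6 factors were called in IL1R1-KO and 4 in IL1RAP-KO cells.

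**Figure D2:**
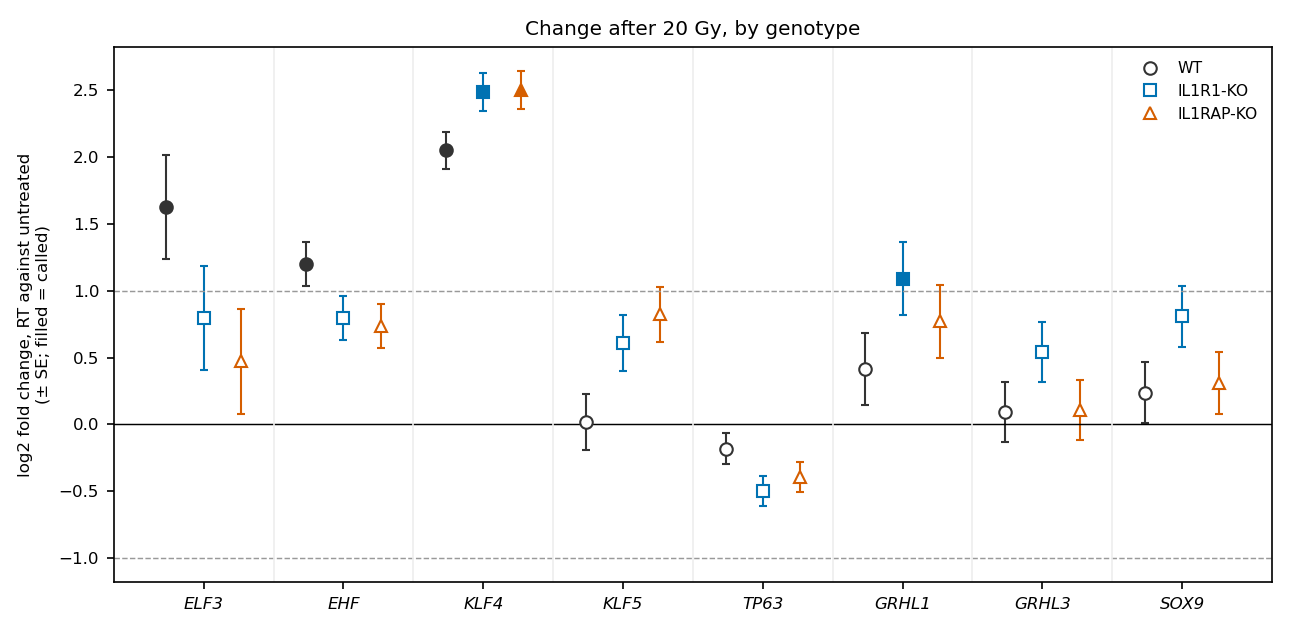
Log2 fold change of each tested factor after 20 Gy in WT (circles), IL1R1-KO (squares) and IL1RAP-KO cells (triangles), with bars of ± 1 SE and dashed lines at a 2-fold change; filled symbols mark called changes. KLF4 is filled in all 3 genotypes (2.05, 2.49 and 2.501), ELF3 (1.63) and EHF (1.20) in WT alone, and GRHL1 (1.09) in IL1R1-KO alone.

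ELF3 differed most between the genotypes. Its level was 12.2 and 9.49 scaled TPM in the WT libraries, 2.06 and 7.14 in IL1R1-KO and 7.12 and 4.01 in IL1RAP-KO. After RT it was 33.9 and 37.0 in WT, 8.41 and 6.96 in IL1R1-KO and 8.98 and 6.84 in IL1RAP-KO. Both WT RT libraries thus stood above all 10 others, and the irradiated KO libraries remained below the untreated WT ones. In WT cells ELF3 rose 3.09-fold (log2 fold change 1.63, SE 0.39, adjusted p = 0.0077 from limma), and the call was lost without WT replicate 2 (1.46, adjusted p = 0.053). In the KO cells the libraries before and after RT overlapped, with log2 fold changes of 0.79 (SE 0.39, adjusted p = 0.12) in IL1R1-KO and 0.47 (SE 0.39, adjusted p = 0.34) in IL1RAP-KO. The change in IL1R1-KO was however called when IL1R1-KO replicate 2 was left out (1.502, adjusted p = 0.0039) and with nuclear scaling (1.19, adjusted p = 0.023), which moved the median of all genes by 0.40 there.

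After RT, ELF3 was lower in both KO lines than in WT. The log2 fold change was -2.07 (SE 0.39, adjusted p = 0.0086 from limma) in IL1R1-KO and -2.04 (SE 0.39, adjusted p = 0.011) in IL1RAP-KO, and all KO RT libraries lay below both WT RT libraries. With groups of 2 these ELF3 calls leaned on single libraries. Against IL1R1-KO RT the call was lost when WT RT replicate 1 (-2.13, adjusted p = 0.059) or IL1R1-KO RT replicate 2 (-1.95, adjusted p = 0.061) was left out. Against IL1RAP-KO RT it was lost without either WT RT library (-2.10 and -1.98, adjusted p = 0.07 and 0.052) and when IL1RAP-KO RT replicate 2 was left out (-1.87, adjusted p = 0.066). The fold change stayed over 3 in each of these fits.

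Untreated KO cells also had less ELF3 mRNA than WT in every library, with log2 fold changes of -1.24 in IL1R1-KO (adjusted p = 0.72 from limma) and -0.89 in IL1RAP-KO (adjusted p = 1 from limma). Neither was called, but without IL1R1-KO replicate 2 the difference of ELF3 in IL1R1-KO was -1.95 (adjusted p = 0.028). Whether the response of ELF3 to RT itself differed was asked by the interaction of genotype and RT. It was -0.83 (95% interval -2.07 to 0.41, adjusted p = 0.5 from limma) for IL1R1-KO and -1.15 (-2.39 to 0.08, adjusted p = 0.32) for IL1RAP-KO, so a smaller response in the KO cells was not established. ELF3 overlaps the antisense gene ELF3-AS1, which was measured at 1.21 to 4.30 TPM. The strand setting of the counting was not stated, and if strand was not used, reads of the overlapping stretch cannot be told apart.

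EHF followed a similar course at a higher level. It was 46.0 and 46.8 scaled TPM in WT, 28.4 and 39.6 in IL1R1-KO and 40.4 and 39.7 in IL1RAP-KO, and after RT 99.8 and 116 in WT, 63.3 and 54.9 in IL1R1-KO and 59.1 and 76.8 in IL1RAP-KO. Every irradiated library stood above every untreated one, and the WT RT libraries above all others. EHF rose 2.30-fold in WT (log2 fold change 1.20, SE 0.16, adjusted p = 0.00031 from limma), although with TPM as deposited the change was 0.93 and fell short of the fold threshold, with the median of all genes at -0.21. The changes of EHF in IL1R1-KO (0.80, SE 0.16, adjusted p = 0.003) and IL1RAP-KO (0.74, SE 0.16, adjusted p = 0.0045) passed the adjusted p but not the fold threshold, and the former was called without IL1R1-KO replicate 2 (1.03, adjusted p = 0.0014). With nuclear scaling EHF was called in both KO lines (1.26, adjusted p = 0.00026, and 1.13, adjusted p = 0.00052), so that scaling called it in every genotype. After RT, EHF differed from WT by -0.86 in IL1R1-KO (SE 0.16, adjusted p = 0.0093) and by -0.67 in IL1RAP-KO (SE 0.16, adjusted p = 0.028), both under 2-fold. The interactions were -0.40 (95% interval -0.93 to 0.12) and -0.46 (-0.98 to 0.06), and neither was called.

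ELF5, the third ETS factor, was listed at 0 in 10 of the 12 libraries, with 0.05 TPM in IL1R1-KO replicate 2 and 0.11 TPM in IL1R1-KO RT replicate 2. It lies 95.9 kb from EHF on chromosome 11 on the opposite strand, so a pair of neighbouring ETS genes differed from 28.4 or more scaled TPM for EHF to almost no signal for ELF5. None of 12 housekeeping genes was listed at 0 in any library. Depth was unknown, so how low a level could have been detected cannot be given.

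KLF4 changed most consistently with RT. Its level was 2.77 and 3.45 scaled TPM in WT, 5.08 and 3.82 in IL1R1-KO and 3.77 and 3.84 in IL1RAP-KO. After RT it was 15.1 and 16.8 in WT, 30.0 and 28.7 in IL1R1-KO and 27.3 and 25.1 in IL1RAP-KO. The 6 irradiated libraries thus stood far above the 6 untreated ones, and the 4 irradiated KO libraries above both WT RT libraries. KLF4 rose 4.14-fold in WT (log2 fold change 2.05, SE 0.14, adjusted p = 4.5e-06 from limma), 5.60-fold in IL1R1-KO (2.49, SE 0.14, adjusted p = 1.1e-06) and 5.66-fold in IL1RAP-KO (2.501, SE 0.14, adjusted p = 1.2e-06). These calls were kept under all 21 alternatives. Fold changes are on the log2(scaled TPM + 1) scale, which understates the changes of low genes. KLF4 was therefore the only factor of the 8 called in each genotype, other than EHF with nuclear scaling or at the lower fold threshold of the study's methods.

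Between genotypes KLF4 differed in the direction opposite to ELF3. After RT it was higher than in WT by 0.84 in IL1R1-KO (SE 0.14, adjusted p = 0.0049 from limma) and by 0.68 in IL1RAP-KO (SE 0.14, adjusted p = 0.015), both short of 2-fold. The first passed the fold threshold with TPM as deposited (1.09, adjusted p = 0.0055) and with nuclear scaling (1.18, adjusted p = 0.00069), 2 scalings that moved the median of all genes by 0.23 and 0.31. The interactions of KLF4, 0.44 (95% interval -0.01 to 0.88, adjusted p = 0.31) and 0.45 (0.00 to 0.90, adjusted p = 0.28), were not called. In untreated cells the difference from WT was 0.40 in IL1R1-KO (adjusted p = 0.82) and 0.23 in IL1RAP-KO (adjusted p = 1).

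KLF5, the most abundant of the factors in 5 of the 6 groups, was not called in WT cells after RT. It was 91.6 and 102 scaled TPM in WT and 94.1 and 102 in WT RT (log2 fold change 0.02, 95% interval -0.45 to 0.48). In IL1R1-KO cells it was 87.3 and 87.5 untreated and 131 and 136 after RT (0.61, SE 0.21, adjusted p = 0.036 from limma), and in IL1RAP-KO cells 92.1 and 93.6 untreated and 122 and 223 after RT (0.82, SE 0.21, adjusted p = 0.0087). All 4 irradiated KO libraries stood above the 8 others, but no KLF5 change was called, since all were under 2-fold. With nuclear scaling KLF5 was called after RT in IL1R1-KO (1.08, adjusted p = 0.002) and IL1RAP-KO (1.22, adjusted p = 0.00099), and in IL1RAP-KO RT against WT RT (1.03, adjusted p = 0.008). The IL1RAP-KO RT libraries were far apart, and the higher one was the library with the highest mitochondrial share. Without IL1RAP-KO RT replicate 1, which leaves that library alone in its group, KLF5 was called in the RT response of IL1RAP-KO (1.25, adjusted p = 1e-05), against WT RT (1.18, adjusted p = 0.00011) and in the interaction (1.24, adjusted p = 0.0014). With both libraries the interaction was 0.81 (95% interval 0.14 to 1.47, adjusted p = 0.21) in IL1RAP-KO and 0.59 (-0.07 to 1.25, adjusted p = 0.35) in IL1R1-KO.

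With trimmed-mean scaling, TP63 was the steadiest of the tested factors, with a ratio of 1.61 between its highest and lowest library. On this scaling it was the only one with lower values after RT in all genotypes. It was 31.3 and 32.7 scaled TPM in WT, 35.7 and 35.2 in IL1R1-KO and 36.5 and 35.5 in IL1RAP-KO. After RT it was 30.7 and 25.8 in WT, 22.6 and 27.3 in IL1R1-KO and 25.97 and 28.5 in IL1RAP-KO. The log2 fold changes after RT were -0.18 in WT (adjusted p = 0.23 from limma), -0.50 in IL1R1-KO (SE 0.11, adjusted p = 0.0051) and -0.39 in IL1RAP-KO (SE 0.11, adjusted p = 0.016), all under 2-fold. The falls in the KO lines depend on the scaling. Nuclear scaling put the median of all genes at 0.40 for RT in IL1R1-KO and 0.33 in IL1RAP-KO, near the size of these falls. With it TP63 was 0.17 higher in IL1R1-KO RT and 0.23 higher in IL1RAP-KO RT than in WT RT, neither called. TP63 and IL1RAP lie 616.8 kb apart on chromosome 3. Untreated IL1RAP-KO cells, in which IL1RAP was lower, differed from WT in TP63 by 0.16 (95% interval -0.09 to 0.42).

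The grainyhead-like factors were unequal. GRHL3 was measured at 11.3 to 26.3 scaled TPM, GRHL1 at 0.530 to 3.85, and GRHL2 was listed at 0 in 10 libraries, with 0.05 TPM in WT RT replicate 2 and 0.06 TPM in IL1R1-KO RT replicate 2. GRHL1 was 1.22 and 0.782 scaled TPM in WT, 0.619 and 0.530 in IL1R1-KO and 1.34 and 0.948 in IL1RAP-KO, and after RT 1.65 and 1.66 in WT, 2.73 and 2.01 in IL1R1-KO and 1.74 and 3.85 in IL1RAP-KO. All 6 irradiated libraries lay above the 6 untreated ones. GRHL1 rose in IL1R1-KO (log2 fold change 1.09, SE 0.27, adjusted p = 0.0079 from limma), a call lost without IL1R1-KO RT replicate 1 (0.94, adjusted p = 0.059). Its changes in WT (0.42, SE 0.27, adjusted p = 0.24) and IL1RAP-KO (0.77, SE 0.27, adjusted p = 0.038) were not called. The latter was called when IL1RAP-KO RT replicate 1 was left out (1.18, adjusted p = 0.0037), with nuclear scaling (1.03, adjusted p = 0.011) and with a pseudocount of 0.1 (1.13, adjusted p = 0.044). The GRHL1 interactions, 0.67 (95% interval -0.18 to 1.53) and 0.35 (-0.50 to 1.21), were not called.

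GRHL3 was near 14 scaled TPM in all untreated libraries (13.9 to 15.4). After RT it was 19.7 and 11.3 in WT, 18.1 and 26.3 in IL1R1-KO and 16.1 and 15.6 in IL1RAP-KO, so its libraries were spread within the WT RT and IL1R1-KO RT groups. No comparison called it, and the nearest was the response to RT of IL1R1-KO cells (log2 fold change 0.54, SE 0.23, adjusted p = 0.072 from limma). GRHL3 overlaps STPG1 on the opposite strand, which was at 5.42 to 14.25 TPM. The overlap is one of whole gene spans, and shared exons were not looked for. The study names a stranded library kit, but the strand setting of the counting was not stated. If strand was not used, reads of any shared stretch cannot be told apart.

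SOX9 was low throughout, at 1.31 to 4.36 scaled TPM. It was 2.26 and 2.34 in WT, 1.31 and 2.60 in IL1R1-KO and 3.17 and 2.33 in IL1RAP-KO, and after RT 3.02 and 2.76 in WT, 3.78 and 4.36 in IL1R1-KO and 3.08 and 4.22 in IL1RAP-KO. No comparison called SOX9. In IL1R1-KO the log2 fold change after RT was 0.81 (SE 0.23, adjusted p = 0.016 from limma), short of 2-fold, and it was called without IL1R1-KO replicate 2 (1.13, adjusted p = 0.0051), with nuclear scaling (1.16, adjusted p = 0.0018) and with a pseudocount of 0.1 (1.09, adjusted p = 0.018). The antisense gene SOX9-AS1 did not exceed 0.57 TPM.

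Receptor loss was compared with WT to ask which factors depended on genotype. Untreated, 0 of the 8 factors were called in either KO line with limma, beside 0.137% of all genes in IL1R1-KO (0.0196% higher, 0.118% lower) and 0.0915% in IL1RAP-KO (all lower). At an unadjusted p under 0.05 the counts were 3 in IL1R1-KO (ELF3, EHF and KLF4), beside 5.27% of all genes, and 1 in IL1RAP-KO (ELF3), beside 4.02%, and without IL1R1-KO replicate 2 ELF3 was called in IL1R1-KO (1 of 8). The libraries did not overlap for 7 and 4 of the 8, beside 36.7 and 37.8% of all genes. After RT, ELF3 was the single factor called in either line, beside 3.06% (1.18% higher, 1.89% lower) and 2.89% (0.823% higher, 2.06% lower) of all genes. The libraries of 6 of the 8 factors did not overlap in either comparison, beside 58.4 and 53.7% of all genes. The KO comparisons share the WT libraries. Between the 2 KO lines after RT, limma called 0 of the 8 factors (0 at an unadjusted p under 0.05, beside 15.2% of all genes), beside 0.0719% of all genes (0.0131% higher, 0.0588% lower in IL1R1-KO), and the libraries did not overlap for 2 of the 8, beside 40.6% of all genes. For ELF3 this difference was -0.03 with a 95% interval of -0.91 to 0.84.

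The interactions called 0 of the 8 factors with limma, beside 1.44% of all genes for IL1R1-KO (0.516% higher, 0.928% lower) and 0.817% for IL1RAP-KO (0.157% higher, 0.66% lower). At an unadjusted p under 0.05 there were 0 for IL1R1-KO, beside 17% of all genes, and 2 for IL1RAP-KO (KLF4 and KLF5), beside 17.4%. Of these, KLF5 was called without IL1RAP-KO RT replicate 1 (1 of 8). The counts against WT RT varied with single libraries. For IL1R1-KO RT it was 0 without WT RT replicate 1 or IL1R1-KO RT replicate 2. For IL1RAP-KO RT it was 0 when replicate 2 of this group or either WT RT library was left out, and 2 when replicate 1 of this group was. With nuclear scaling both counts were 2.

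**Figure D3:**
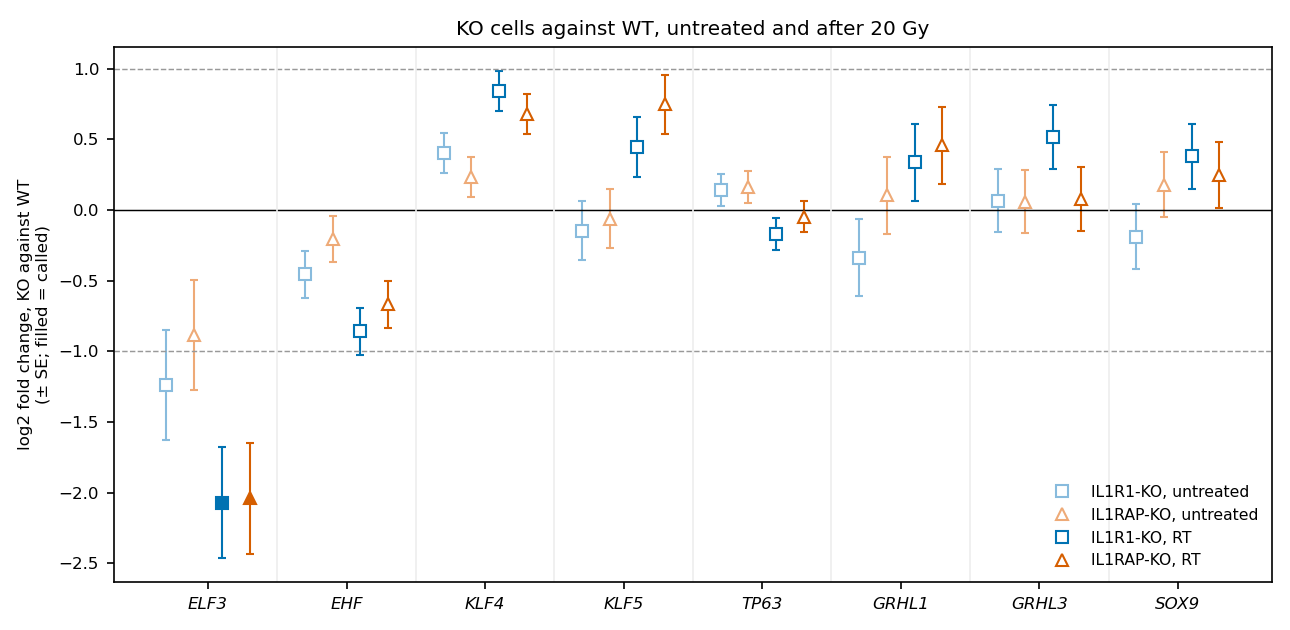
Log2 fold change of KO against WT cells for each tested factor, untreated (pale symbols) and after 20 Gy (dark symbols), for IL1R1-KO (squares) and IL1RAP-KO (triangles), with bars of ± 1 SE, dashed lines at a 2-fold change and filled symbols for called differences. Only ELF3 after RT is filled (-2.07 and -2.04), and KLF4 lies above 0 after RT (0.84 and 0.68).

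Of 30 other transcription factors of epithelia listed, 22 were tested. In WT cells 1 rose after RT and 2 fell, a share near the 13.2% of all genes called, with a list median of 0.13 beside 0.00 over all genes. PRDM1, a repressor that acts in terminal differentiation, rose from 0.991 ± 0.0024 to 5.03 ± 0.35 scaled TPM (log2 fold change 1.60, SE 0.29, adjusted p = 0.0018 from limma). TFCP2L1, a grainyhead-related factor, fell (-1.40, SE 0.18, adjusted p = 0.00019). SNAI2, a repressor of epithelial genes that is also part of the basal mammary programme, fell by 1.02 on the log2 scale (SE 0.12, adjusted p = 1e-04), just past the threshold and not past it with median-of-ratios factors (-0.98), with nuclear scaling (-0.91) or without WT RT replicate 2 (-0.88). In the KO cells KLF6 rose in both lines. Its log2 fold change was 1.38 in IL1R1-KO (adjusted p = 9.5e-06) and 1.07 in IL1RAP-KO (adjusted p = 4.9e-05), the latter under 2-fold without IL1RAP-KO replicate 2 (0.99), without IL1RAP-KO RT replicate 1 (0.91) and with TPM as deposited (0.72). TFCP2L1 also fell in IL1RAP-KO cells (-1.10), but not past 2-fold without IL1RAP-KO RT replicate 2 (-0.98) or with nuclear scaling (-0.72). None of the 22 was called between KO and WT cells after RT.

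The known targets of p63 did not move in 1 direction. Of 23 tested (24 listed), 3 rose and 3 fell in WT cells after RT, with a median of -0.13. Of all genes 7.05% were called higher and 6.16% lower in WT. LAMA3 (log2 fold change 1.17, SE 0.086, adjusted p = 6.4e-06 from limma), a chain of the basement membrane protein laminin-332, and COL17A1 (1.25, SE 0.12, adjusted p = 2.9e-05), a hemidesmosome collagen, rose, whereas KRT5, the basal keratin, fell from 2317 ± 51 to 870.0 ± 22 scaled TPM (-1.41, SE 0.12, adjusted p = 1.4e-05). With TPM as deposited the changes of LAMA3 (0.91) and COL17A1 (0.99) were under 2-fold and the list counts were 1 higher and 4 lower. The numbers that rose and fell were 2 and 4 in IL1R1-KO cells and 1 and 5 in IL1RAP-KO cells. The shares of all genes were 8.16 and 8.16%, and 8.21 and 9.18%. With nuclear scaling the splits of the p63 targets turned to 6 and 2 and to 3 and 2.

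Between the irradiated genotypes, 4 of the 23 p63 targets differed in IL1R1-KO (1 higher, 3 lower) and 2 in IL1RAP-KO (both lower). Beside them, 3.06 and 2.89% of all genes were called. LAMB3, another laminin-332 chain, was lower in both (-1.13, adjusted p = 0.00038 from limma, and -1.37, adjusted p = 0.00013), with 313 ± 34 scaled TPM in WT RT, 121 ± 17 in IL1RAP-KO RT and 143 ± 3.5 in IL1R1-KO RT. LAMA3 was lower in IL1R1-KO RT (-1.07, adjusted p = 5.8e-05), and under 2-fold without WT RT replicate 1 (-0.97). With TPM as deposited and with nuclear scaling, LAMA3 (-0.80 and -0.71) and LAMB3 (-0.86 and -0.77) were under 2-fold in IL1R1-KO RT. S100A2 was the other target called in IL1RAP-KO RT (-1.56, adjusted p = 0.0094), but not without WT RT replicate 1 (-1.44). It was also called lower in IL1R1-KO RT (-1.33). That call was lost without WT RT replicate 1 (-1.21) or either IL1R1-KO RT library (-1.17 and -1.49). It was lost too with TPM as deposited (-1.07, adjusted p = 0.068 from limma) and with nuclear scaling (-0.98). KRT14, the partner keratin of KRT5, moved the other way. It was 82.6 ± 0.93 in WT and 28.6 ± 1.4 in WT RT, and 49.9 ± 9.6 in IL1R1-KO and 72.9 ± 12 in IL1R1-KO RT, with an interaction of 2.04 (SE 0.20, adjusted p = 0.00097). For IL1RAP-KO the KRT14 interaction was 1.36 (SE 0.20, adjusted p = 0.013), but its adjusted p was between 0.053 and 0.076 without WT replicate 1 or 2, IL1RAP-KO replicate 1 or 2, or WT RT replicate 1. TP63 itself had no called difference in any of these comparisons.

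Genes of epithelial junctions and GRHL targets were tested for 20 of 21 listed. The numbers called higher and lower after RT were 2 and 1 in WT, 4 and 1 in IL1R1-KO, and 2 and 3 in IL1RAP-KO. The shares of all genes were 7.05 and 6.16%, 8.16 and 8.16%, and 8.21 and 9.18% in turn. CLDN1, a tight junction claudin, rose from 60.3 ± 4.6 to 241 ± 13 scaled TPM in WT (log2 fold change 1.98, SE 0.10, adjusted p = 6.8e-07 from limma) and was called in both KO lines as well (1.65 and 1.67). EPCAM, an epithelial adhesion molecule, fell from 136 ± 0.87 to 32.8 ± 7.6 in WT (-2.04, SE 0.16, adjusted p = 1.1e-05) and by 1.70 on the log2 scale in either KO line. CLDN4 rose in WT (1.01, SE 0.22, adjusted p = 0.0049), but was under 2-fold without WT replicate 2 (0.94), without WT RT replicate 1 (1.00) and with TPM as deposited (0.83). With nuclear scaling the list counts were 9 and 1 in IL1R1-KO, and 4 and 1 in IL1RAP-KO. After RT, OCLN, the tight junction protein occludin, was higher than in WT in both KO lines (1.20, adjusted p = 4e-04, and 1.11, adjusted p = 0.00078). In the same 2 comparisons GRHL1 (0.34 in IL1R1-KO and 0.46 in IL1RAP-KO) and GRHL3 (0.52 and 0.08) were higher but not called. GRHL2 was near 0 in these libraries. The part of the GRHL factors in the level of OCLN was not tested.

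Of 20 terminal differentiation genes, 12 were tested. In WT cells after RT 4 rose and 1 fell, in IL1R1-KO cells 3 rose and in IL1RAP-KO cells 2 rose, with medians of 0.38, 0.83 and 0.26. Of all genes 7.05, 8.16 and 8.21% were called higher in turn, and 6.16% lower in WT. The genes with the smallest adjusted p in WT were small proline-rich proteins of the cornified envelope. SPRR2D rose from 1.61 ± 0.00067 to 10.7 ± 2.1 scaled TPM (log2 fold change 2.15, SE 0.22, adjusted p = 4.8e-05 from limma), SPRR2A by 1.85 (SE 0.25, adjusted p = 0.00026) and SPRR1B by 1.42 (SE 0.41, adjusted p = 0.018). The call of SPRR1B was lost without WT replicate 1 (adjusted p = 0.11), WT RT replicate 1 (0.059) or WT RT replicate 2 (0.087). The WT count also leaned on single libraries. SPRR1A (1.61) was called in 4 of the 12 fits that left out a library, and TGM1, the gene that fell (-1.10), in 9 of 12. With nuclear scaling neither was called in WT (SPRR1A 1.58, adjusted p = 0.06 from limma, and TGM1 -0.99, under 2-fold). In IL1RAP-KO cells the count was 0 with TPM as deposited, and in IL1R1-KO cells it was 7 with nuclear scaling. IVL and KRT1, markers of stratified differentiation, stayed under 1 scaled TPM in all 12 libraries.

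Some reported targets of ELF3 were also highest in WT RT cells. Of 9 listed, 6 were tested, and 3 rose in WT cells after RT, LCN2, CCL20 and SPRR2A, beside 1 in IL1R1-KO (LCN2) and 1 in IL1RAP-KO (LCN2), where CCL20 fell. Of all genes 7.05, 8.16 and 8.21% were called higher in turn, and 9.18% lower in IL1RAP-KO. LCN2, the secreted protein lipocalin-2, was 1.29 ± 0.34 scaled TPM in WT and 422 ± 141 in WT RT, but 35.6 ± 0.91 in IL1RAP-KO RT and 20.3 ± 0.39 in IL1R1-KO RT. CCL20, a chemokine, was 13.6 ± 2.4 in WT, 42.0 ± 3.5 in WT RT, 3.11 ± 0.98 in IL1RAP-KO RT and 3.96 ± 1.2 in IL1R1-KO RT. Against WT RT, LCN2 was lower in IL1R1-KO (log2 fold change -4.27, adjusted p = 3.2e-05 from limma) and CCL20 had a log2 fold change of -3.13 (adjusted p = 3.1e-05). In IL1RAP-KO the values were -3.49 (adjusted p = 0.00015) and -3.40 (adjusted p = 2.6e-05). SPRR2A was lower in IL1RAP-KO RT (-1.39, adjusted p = 0.0082), though not without WT RT replicate 1 (-1.19, adjusted p = 0.076). The interactions of LCN2 (-3.94 and -3.90, adjusted p = 0.002 and 0.0034) and CCL20 (-2.36 and -2.99, adjusted p = 0.0057 and 0.0026) were called in both KO lines, unlike those of ELF3. The other 3 tested targets, PTGS2, CLDN7 and TGFBR2, were not called after RT in WT. Both LCN2 and CCL20 are also known targets of NF-κB, and the part of ELF3 in their levels was not tested.

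Targets of KLF4 and KLF5 were tested for 9 of 11 genes. In WT cells after RT 1 rose and 3 fell, and in each KO line 1 rose and 4 fell. Of all genes 7.05% were called higher and 6.16% lower in WT. The shares were 8.16 and 8.16% in IL1R1-KO, and 8.21 and 9.18% in IL1RAP-KO. The genes with the smallest adjusted p were BIRC5 (log2 fold change -4.08, SE 0.15, adjusted p = 1.5e-07 from limma) and CCNB1 (-3.59, SE 0.14, adjusted p = 2.1e-07), both genes of mitosis that KLF4 is known to repress, and FGFBP1 (-3.92, SE 0.26, adjusted p = 3.4e-06), a KLF5 target that carries fibroblast growth factors. FGFBP1 went from 183 ± 4.7 scaled TPM in WT to 11.8 ± 5.6 in WT RT with KLF5 mRNA at 97.0 and 98.0. The gene that rose was CDKN1A, the p21 inhibitor of the cell cycle, named here after its values were seen (1.51, SE 0.17, adjusted p = 8.4e-05). CDKN1A is a target of p53 as well, and the part of KLF4 and KLF5 in these changes was not tested. CDKN1A rose in IL1R1-KO (2.15) and IL1RAP-KO cells (1.73) too.

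**Figure D4:**
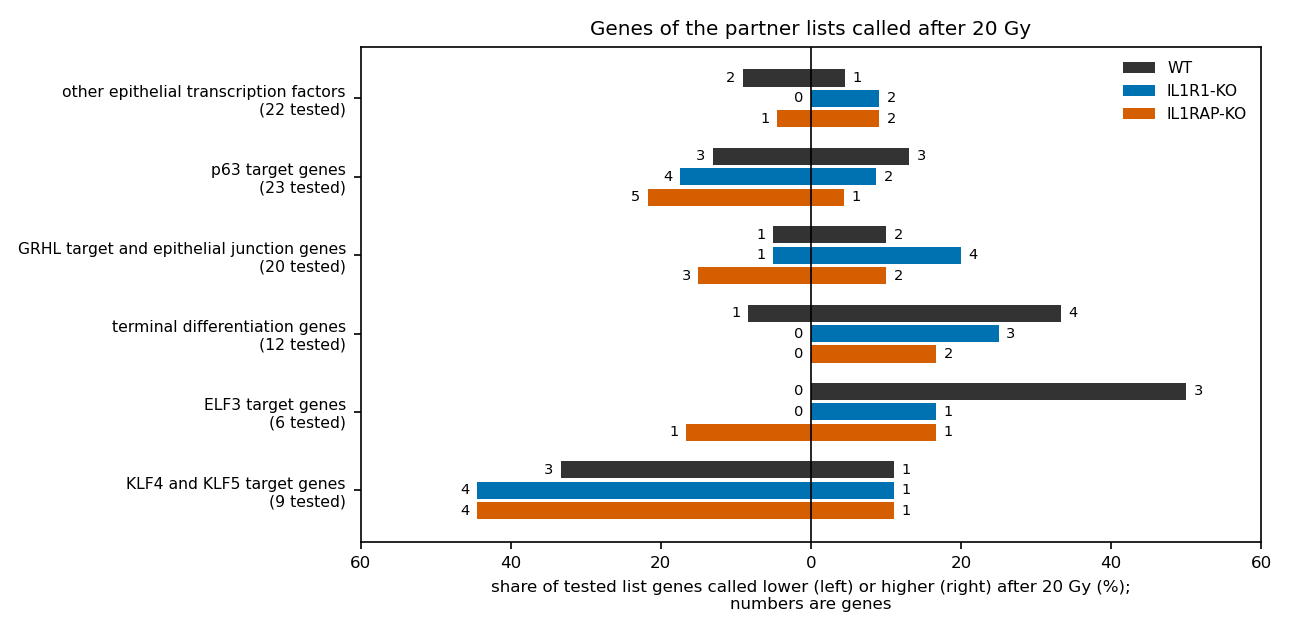
Share of tested genes in each list that were called lower (left bars) or higher (right bars) after 20 Gy in WT, IL1R1-KO and IL1RAP-KO cells, with the number of genes at each bar's end. In the picture, 3 of 6 ELF3 targets were called higher in WT and 1 of 6 in each KO line, whereas the KLF4 and KLF5 targets had 3 or 4 of 9 called lower in every genotype.

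The genes whose pattern was most like that of KLF4, ELF3 and EHF, which had 4, 3 and 1 called comparisons, were found by Pearson's r of log2 values over the 12 libraries, among 10963 genes with a mean of at least 2 on the log2 scale. The libraries fall into groups by RT and genotype, so r describes shared steps between groups. GRHL1 also had 1 called comparison, and EHF was taken for its higher level. KLF4 was most like H2AC6 (r = 0.997), RASSF3 (r = 0.996) and AL161665.1 (r = 0.994). EHF was most like ACSL5 (r = 0.975), BIRC3 (r = 0.969) and OGFRL1 (r = 0.969). ELF3 was most like UGCG (r = 0.941), UTP25 (r = 0.939) and ZC3H12C (r = 0.938).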

How the data were processed

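RNA-seq of MCF10A cells was analysed from the TPM values the authors deposited for 60675 genes in 12 libraries. Reads had been trimmed with cutadapt 1.15, aligned with STAR 2.5.3a to GRCh38 and counted with HTSeq, per the submitters' processing notes, which also name DESeq2. The gene lengths behind TPM and the strand setting of the counting were not given in the sources used here. Counts were not used, so depth is unknown and counting error cannot be given; the 12 single-library tables equal their columns in the joint table.

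Genes at 1 TPM or more in at least 2 libraries (15303) were scaled by unweighted trimmed means of M values (30% of M and 5% of A values trimmed), taken as log2(scaled TPM + 1) and modelled per group with limma 3.58.1 (R 4.3.3) with a mean-variance trend, leaving 6 residual degrees of freedom and 3.73 prior ones. A call required a fold change over 2 with p under 0.05 after Benjamini-Hochberg adjustment over all genes of a comparison. The script was tested on simulated data. Intervals are 95% intervals of the fit. The 11 comparisons and 21 alternatives included the lower fold threshold of the study's methods. The members and lists were chosen with earlier results of these data known. All members are named; of each list, up to 3 called genes with the smallest adjusted p in the comparison described were named, with the 3 genes most alike in pattern for the 3 members with the most called comparisons (ties went to the higher mean level); all other genes named were markers, neighbours, housekeeping genes or the targeted genes, or were chosen after their values were seen. Start sites and promoters came from RefSeq (GRCh38.p14), gene overlaps and distances from GENCODE on GRCh38. Sequences were read with Python 3.11.15 and figures drawn with matplotlib 3.10.9.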

Additional observations from a re-analysis of the deposited data

How the results depend on the processing

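Depth was unknown and groups held 2 libraries, so precision rests on the spread between those libraries. The 8 tested factors in 11 comparisons gave 88 fold changes, refitted under 21 alternatives (1848 values): 1750 kept their direction and their side of the threshold, 8 no longer passed, 47 newly passed (17 of them because the fold threshold was lowered to that of the study's methods) and 43 changed sign, none of them called. KLF4 kept its calls after RT under all 21. The causes of the changes below were not tested. Other scalings shift all genes together: with TPM as deposited the median of all genes was -0.21 for RT in WT, -0.28 for RT in IL1RAP-KO and 0.23 for IL1R1-KO RT against WT RT. With factors from nuclear protein-coding genes alone (nuclear scaling) it was 0.40 for RT in IL1R1-KO, 0.33 for RT in IL1RAP-KO, 0.31 for IL1R1-KO RT and 0.24 for IL1RAP-KO RT against WT RT.

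The number of factors called for RT in IL1R1-KO (2) became 6 with nuclear scaling, 3 with a pseudocount of 0.1 and 6 at the lower fold threshold of the study's methods, and for RT in IL1RAP-KO (1) it became 4 with nuclear scaling, 2 with a pseudocount of 0.1 and 4 at the lower fold threshold. For RT averaged over genotypes (1) it became 3, 3 and 6 under these settings in turn, and 2 with a pseudocount of 0.5. For IL1R1-KO RT against WT RT (1) it became 2 with TPM as deposited, 2 with nuclear scaling and 3 at the lower fold threshold, and for IL1RAP-KO RT against WT RT (1) it became 2 with nuclear scaling and 4 at the lower fold threshold. Leaving out each library in turn gave 2 to 3 for RT in WT, 1 to 5 in IL1R1-KO, 1 to 3 in IL1RAP-KO and 1 to 2 averaged, 0 to 1 for untreated IL1R1-KO against WT, 0 to 1 for IL1R1-KO RT and 0 to 2 for IL1RAP-KO RT against WT RT, and 0 to 1 for the interaction of IL1RAP-KO.

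With TPM as deposited all genes called higher and lower after RT numbered 1345 and 1221 in IL1R1-KO (1248 and 1248 as reported) and 733 and 2532 in IL1RAP-KO (1256 and 1405), and with nuclear scaling 2736 and 566, and 2404 and 685. Against WT RT they were 374 and 210 for IL1R1-KO RT (180 and 289) and 53 and 300 for IL1RAP-KO RT (126 and 316), and with nuclear scaling 535 and 199, and 368 and 231.

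The following values changed sign, all of them uncalled. With TPM as deposited these were GRHL3 (-0.16) and KLF5 (-0.25) for RT in WT, GRHL3 for RT in IL1RAP-KO (-0.22), TP63 for IL1R1-KO RT against WT RT (0.0838), GRHL3 for IL1RAP-KO RT against WT RT (-0.0121), TP63 (0.22), ELF3 (0.28), EHF (0.16), GRHL1 (0.15) and KLF5 (0.0579) between the KO lines after RT, and GRHL3 (-0.0639) and SOX9 (-0.00914) for the interaction of IL1RAP-KO. With nuclear scaling they were TP63 for IL1R1-KO RT (0.17) and IL1RAP-KO RT (0.23) against WT RT and for both interactions (0.0299 and 0.0666), and ELF3 between the KO lines after RT (0.0316). With no filter they were KLF5 for RT in WT (-0.0502) and GRHL3 for the interaction of IL1RAP-KO (-0.00432).

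When each library was left out in turn, the log2 fold changes that changed sign at least once ranged as follows. For RT in WT these were GRHL3 -0.28 to 0.47 and KLF5 -0.0643 to 0.0956. For IL1R1-KO against WT these were SOX9 -0.51 to 0.13. For IL1RAP-KO against WT these were GRHL1 -0.0552 to 0.26, GRHL3 -0.00792 to 0.13 and KLF5 -0.14 to 0.0194. For IL1RAP-KO RT against WT RT these were TP63 -0.17 to 0.0724 and GRHL3 -0.30 to 0.45. For the KO lines after RT these were TP63 -0.26 to 0.00593, ELF3 -0.20 to 0.14, GRHL1 -0.53 to 0.29, KLF5 -0.73 to 0.13 and SOX9 -0.0459 to 0.31. For the interaction of IL1RAP-KO these were GRHL1 -0.0573 to 0.77, GRHL3 -0.36 to 0.39 and SOX9 -0.11 to 0.25.

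Libraries with the same replicate number did not deviate together: over the 15 pairs of groups, Pearson's r of their deviations was between -0.061 and 0.095, with a median of 0.0082. With the number as a replicate block the counts were 3, 2 and 1 for RT in WT, IL1R1-KO and IL1RAP-KO, 1 averaged, 1 and 1 for the KO lines against WT RT and 0 elsewhere, as without it.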
